A study of Mus musculus with 4 samples.

Results

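Siglece, Cd33, Siglecf, Siglecg, Nkg7, Klk8, Etfb, Cldnd2 and Ctu1 are 9 of the 32285 genes counted in the series, and lie together on mouse chromosome 7. They were chosen by name because several of them had shifted in the Mll3/4SI library, so their Mll3/4SI values are a description that was used to pick them. The study profiled RNA cell by cell in mouse bone marrow sorted as CD45.2+Kit+, taken 10 weeks post transplant. Its groups were a control, Mll3SI, Mll4SI and the combined Mll3/4SI, and each of these 4 was 1 library. Kit is a receptor carried by early blood progenitors, and CD45.2 is a leukocyte surface form that can tell donor from recipient. MLL3 and MLL4 are histone methyltransferases that work at enhancers. The labels do not spell out SI, and name no Cre, transgene, age, number of animals or pooling. With 1 library per group no difference has a replicate check and no test was made.

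Siglecs are receptors on blood cells that bind sialic acid, a sugar at the tips of cell surface glycans, and most of them carry motifs in their tails that recruit phosphatases and dampen activation. Siglec-E and CD33 are carried by myeloid cells, Siglec-F by eosinophils, and Siglec-G by B cells. Nkg7 encodes a membrane protein of the cytotoxic granules of T and NK cells, and Klk8 a secreted serine protease of the kallikrein family. The others have housekeeping or little-known roles: Etfb encodes the beta subunit of the mitochondrial electron transfer flavoprotein, Ctu1 an enzyme that thiolates transfer RNA, and Cldnd2 a claudin-domain membrane protein.

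In the GENCODE annotation of mouse build GRCm38 the 9 genes span 452.5 kb, from the start of Siglecf at 43351341 to the end of Klk8 at 43803826 on chromosome 7. Siglecf, Siglecg (43408204 to 43418358), Nkg7 (43437073 to 43438249), Cldnd2 (43440782 to 43443334) and Etfb (43444083 to 43457800) follow each other on the plus strand. Cd33 (43524216 to 43544428) and Siglece (43651070 to 43660161) lie on the minus strand, and Ctu1 (43672016 to 43678298) and Klk8 (43797577 to 43803826) on the plus strand. The span holds 26 genes of the files. Klk8 overlaps 1 antisense gene, 2310002F09Rik, by 382 bases, and that gene had 66 UMIs in all cells together. Whether strand was used in counting was not tested.

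The 250 bases before the RefSeq start are printed for the 4 genes that most of the results turn on, 3 lower and 1 higher in Mll3/4SI (RefSeq, GRCm38.p6). All 9 genes were matched by symbol, with 10 promoters, since Siglecg has 2. Capitals mark the letters of 4 short motifs of blood transcription factors, searched on both strands. The letters were GAGGAA for the ETS family and TTNCNNAA for the C/EBP family. For the RUNX family they were TGTGGT, and for the GATA family AGATAA. RefSeq places the starts of Cd33 and Nkg7 inside the GENCODE genes given above, so the Cd33 window lies wholly and the Nkg7 window partly within the gene.
Siglece (chr7:43660162-43660411, minus strand): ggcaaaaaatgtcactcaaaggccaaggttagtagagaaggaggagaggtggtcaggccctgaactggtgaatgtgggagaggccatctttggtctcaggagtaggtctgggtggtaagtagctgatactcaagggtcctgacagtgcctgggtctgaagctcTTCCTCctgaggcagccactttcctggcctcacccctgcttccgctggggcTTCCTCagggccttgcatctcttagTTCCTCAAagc
Cd33 (chr7:43533172-43533421, minus strand): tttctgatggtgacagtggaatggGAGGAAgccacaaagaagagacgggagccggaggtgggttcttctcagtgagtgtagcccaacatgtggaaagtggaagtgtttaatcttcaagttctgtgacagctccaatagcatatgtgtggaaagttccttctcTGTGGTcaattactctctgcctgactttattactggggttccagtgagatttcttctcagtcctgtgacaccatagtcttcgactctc
Nkg7 (chr7:43436888-43437137, plus strand): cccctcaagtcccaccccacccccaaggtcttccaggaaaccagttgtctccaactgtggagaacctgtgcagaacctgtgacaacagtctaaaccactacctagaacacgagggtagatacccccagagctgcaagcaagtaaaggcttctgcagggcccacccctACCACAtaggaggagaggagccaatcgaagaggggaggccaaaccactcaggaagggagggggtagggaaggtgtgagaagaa
Klk8 (chr7:43797327-43797576, plus strand): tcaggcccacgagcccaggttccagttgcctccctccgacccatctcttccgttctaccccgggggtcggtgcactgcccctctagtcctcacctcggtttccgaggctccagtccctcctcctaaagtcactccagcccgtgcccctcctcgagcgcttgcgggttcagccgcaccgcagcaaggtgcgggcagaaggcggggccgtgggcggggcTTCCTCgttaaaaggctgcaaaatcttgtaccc

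GAGGAA was found in 5 of the 10 promoters (Siglece, Cd33, Klk8, Siglecf and 1 of Siglecg) and in 23.3% of the 32851 RefSeq promoters of the same length. Siglece held 3 matches, of which the one nearest the start overlaps a TTNCNNAA match. TTNCNNAA was found in 4 of the 10 (Siglece, Siglecf, Cldnd2 and Ctu1) against 36.8% of all promoters. TGTGGT was found in Cd33 and Nkg7, 2 of 10, against 14%, and AGATAA in 0 of 10 against 9.99%. The Klk8 window held 18 CpG dinucleotides and 65.2% G and C. The Siglece, Cd33 and Nkg7 windows held 1, 3 and 2 CpG. A match is a description of these letters and not a binding site.

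Cells were clustered jointly and classes were named from marker genes: stem and multipotent progenitor cells (HSC/MPP-like), granulocyte-like cells, monocyte-like, erythroid-like and basophil/mast-like cells. The granulocyte-like clusters were divided into 2 with more Elane than Ltf, called Elane-high, and 6 later ones. That made 6 classes. The files held 7524 to 11678 barcodes per library and 140546094 to 177753607 gene UMIs, and 6743 to 10186 cells were kept, with a median of 12800 to 19185 UMIs. Pairs of libraries shared 16 to 29 barcodes, at most 0.355% of the smaller library. Xist, from the X chromosome, stood at 0.0315 and 0.194 CPM in control and Mll3SI but at 1148 and 1360 CPM in Mll4SI and Mll3/4SI, and the Y-linked Eif2s3y had no UMI in the latter pair, so this difference and the labels of that pair cannot be told apart. Kmt2c and Kmt2d, which encode MLL3 and MLL4, were transcribed in all 4 libraries, at 110.3 to 147 CPM and 33.3 to 41.3 CPM. Since 3′ counts may lie outside an altered part of a gene, this does not check the labels. Clusters drawing over 80% of their cells from 1 library were left out of the classes. Such clusters took up 1.47% and 0.773% of the cells in control and Mll3SI, 41.2% in Mll4SI but 52.0% in Mll3/4SI. Their values are given separately.

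Levels are UMIs of a gene scaled to a class total of 1000000 (CPM), with exact Poisson limits in square brackets. Folds are ratios of CPM with exact counting limits, and the limits of a log2 ratio are those of its fold. Log2 ratios have 1 CPM added to both sides, which understates changes of low genes, and a gene is counted as past 2-fold at an absolute log2 ratio of at least 1. A gene is called measured in a class at a mean of at least 5 CPM over the 4 libraries. All limits cover counting error only, not differences between animals. All 3 comparisons share the control library.

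HSC/MPP-like cells had 6 of the 9 genes measured (all but Siglece, Siglecg and Cldnd2), and in Mll3/4SI 3 of them were past 2-fold (Klk8 higher, Nkg7 and Siglecf lower), where 1.01% of all 10164 measured genes were. In granulocyte-like cells of all stages 3 of 6 were past 2-fold in Mll3/4SI (Siglece, Cd33 and Siglecf lower), where 0.851% of 9051 genes were. Because this contrast chose the genes, nothing is read from these shares. In Mll3SI 0 of 6 were past 2-fold in either class, where 0.403% and 0.354% of measured genes were. In Mll4SI it was again 0 of 6 in each, where 1.87% and 2.21% were. By class, the Mll3/4SI counts were 3 of 7 in Elane-high cells (0.739% of all measured genes), 3 of 5 in later granulocyte-like cells (0.968%), 2 of 6 in monocyte-like (0.649%), 3 of 5 in erythroid-like (1.36%) and 3 of 5 in basophil/mast-like cells (4.31%). The Mll4SI counts were 1 of 7 (1.29%), 0 of 5 (4.64%), 0 of 6 (1.29%), 1 of 5 (2.32%) and 2 of 5 (3.12%) in that order, and the genes were Siglecf in each and Klk8 in basophil/mast-like cells. The Mll3SI counts were 0 in all 5, where 0.296%, 0.484%, 0.209%, 0.742% and 2.05% of measured genes were past 2-fold.

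**Figure D1:**
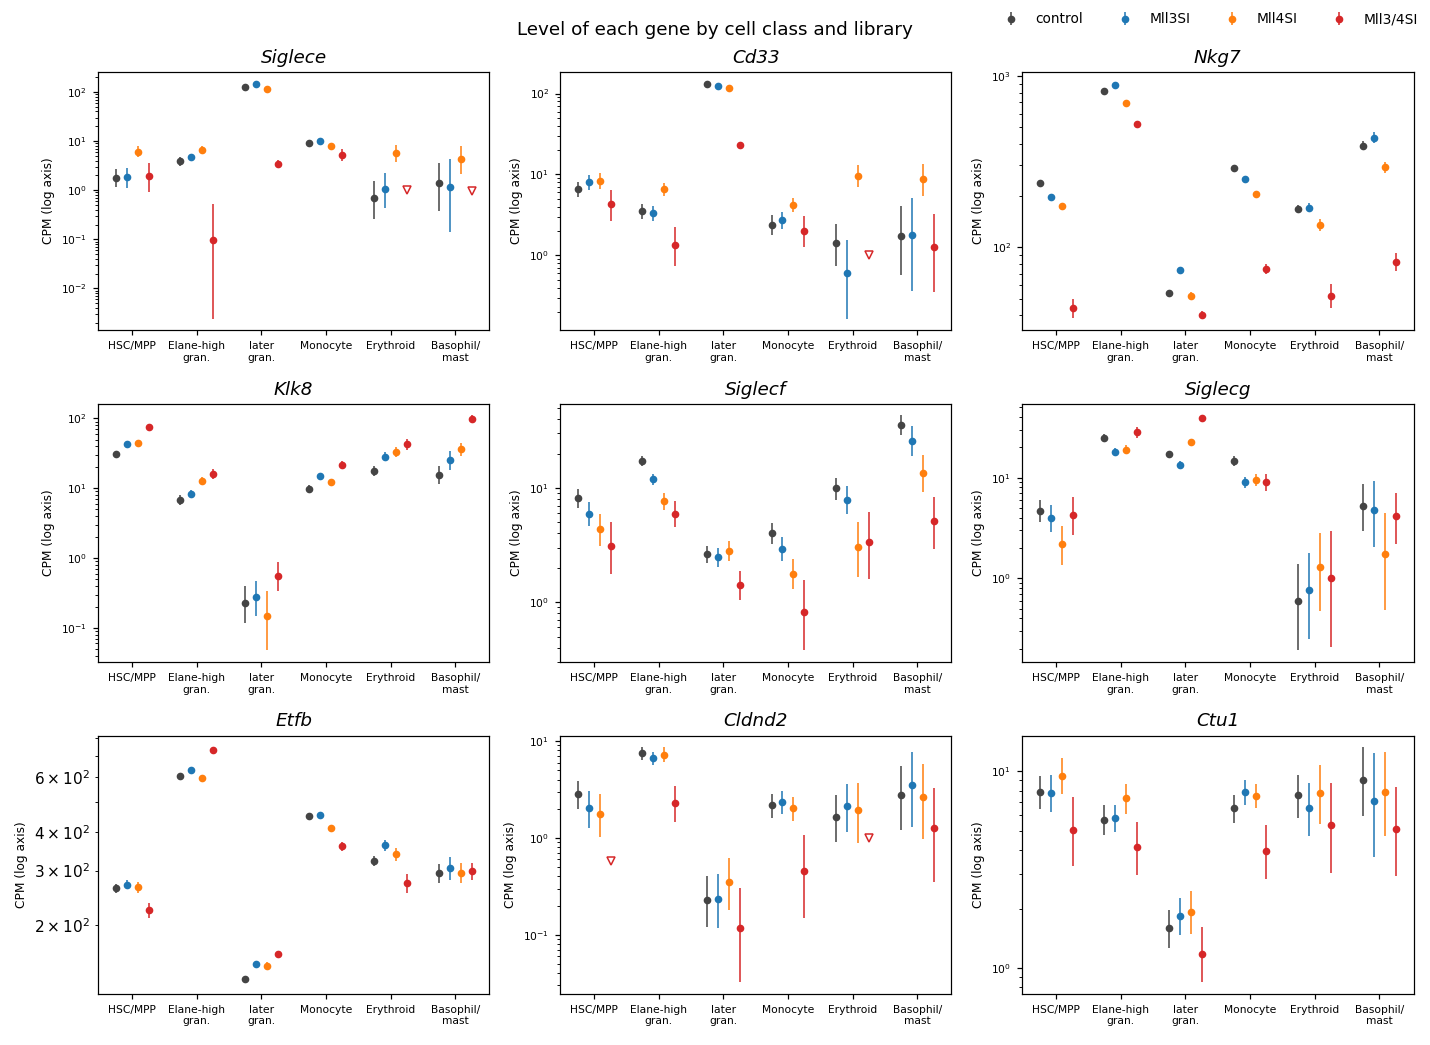
Level of each of the 9 genes in CPM (log axis, scaled to each gene) in the 6 classes, 1 point per library (control grey, Mll3SI blue, Mll4SI orange, Mll3/4SI red). Bars are exact 95% Poisson limits, and open triangles mark a count of 0 at the CPM of 3 UMIs. Siglece and Cd33 are highest in later granulocyte-like cells, where the Mll3/4SI points lie at 3.47 and 23.3 CPM against 127.7 and 129.6 in control.

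Siglece, the myeloid Siglec with inhibitory tail motifs, was the gene with the lowest ratio. In later granulocyte-like cells it stood at 127.7 CPM [125 to 131] in control and 144 CPM [141 to 148] in Mll3SI, with 114 CPM [111 to 118] in Mll4SI against 3.47 CPM [2.87 to 4.16] in Mll3/4SI. No limits overlapped, and Mll3/4SI lay far below the other 3 libraries, at 36.8-fold [30.7 to 44.6] under control. The log2 ratios were 0.17 in Mll3SI, then -0.16 in Mll4SI against -4.85 in Mll3/4SI. The Mll4SI value did not hold within the 6 later clusters, where Siglece was higher in 4 and lower in 2 (-0.35 to 0.29). Over granulocyte-like cells of all stages the Mll4SI ratio was -0.19, but -1.24 with finer clusters. The -1.24 compares unlike stage mixes. Of the finer clusters in the class, the largest later one held 868 control but 40 Mll4SI cells, and the largest Elane-high one 427 and 394. Counting the library-specific clusters into the granulocyte-like class gave -5.20 in Mll3/4SI.

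Few Mll3/4SI cells carried a Siglece transcript. Of the later granulocyte-like cells 78.8% in control (median 14924 UMIs per cell), 76.9% in Mll3SI, and 64.3% in Mll4SI had at least 1 Siglece UMI, against 5.81% in Mll3/4SI (median 17451 UMIs). Erythroid-like cells were taken for comparison, a class raised in 11 erythroid markers but also in 8 HSC/MPP markers. They had a share of 0.737% in control (median 18003 UMIs). In Mll3/4SI it was 0 of 117 cells thinned to 3000 UMIs, which allows up to 2.56%. With each cell thinned to 3000 UMIs the later granulocyte-like shares were 31.2% [29.7 to 32.8], 34.2% [32.6 to 35.7], 28.1% [26.5 to 29.7] and 0.917% [0.535 to 1.46] in the same order, after 17, 19, 45 and 21 shallower cells were left out. The Mll3/4SI cell with most Siglece had 3 UMIs, and the highest in control had 10.

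Siglece was low in Mll3/4SI in all 6 later clusters. Control levels ran from 75.8 to 150.2 CPM over them and Mll3/4SI levels from 0.306 to 7.52 CPM, with log2 ratios of -5.91 to -4.05. Elane-high cells had little Siglece in any library, with 3.87, 4.68 and 6.62 CPM in control, Mll3SI and Mll4SI. Mll3/4SI had 1 UMI there in 366 cells, 0.0959 CPM [0.00243 to 0.535]. Monocyte-like cells differed less: 9.06 CPM [7.86 to 10.4] in control and 9.98 in Mll3SI, with 7.80 in Mll4SI against 5.23 [3.96 to 6.77] in Mll3/4SI, which was 1.73-fold [1.29 to 2.37] below control.

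Cd33 encodes the other myeloid Siglec of the stretch. It too was highest in later granulocyte-like cells and lowest in Mll3/4SI, with a smaller ratio than Siglece. In later granulocyte-like cells it stood at 129.6 CPM [126 to 133] in control and 124 [121 to 128] in Mll3SI, with 117 [113 to 121] in Mll4SI against 23.3 [21.7 to 25] in Mll3/4SI. Mll3/4SI was 5.57-fold [5.17 to 6.0] below control, with a log2 ratio of -2.43, against -0.06 in Mll3SI and -0.15 in Mll4SI. With finer clusters the Mll4SI ratio of Cd33 over all granulocyte-like cells was -1.39 in place of -0.18, again between unlike stage mixes. The gene kept a clear signal in Mll3/4SI: 29.9% of its later granulocyte-like cells had a UMI, against 78.0% in control and, as the level in a class with little of it, 1.97% of control erythroid-like cells. Thinned to 3000 UMIs, the shares were 7.44% [6.29 to 8.73] in Mll3/4SI and 31.6% [30.1 to 33.2] in control.

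Over the 6 later clusters Cd33 ran from 49.7 to 175.6 CPM in control and from 5.51 to 35.3 CPM in Mll3/4SI, with log2 ratios of -3.37 to -2.10. Elane-high cells averaged under 5 CPM, with 3.53 CPM in control and 1.34 CPM in Mll3/4SI (log2 ratio -0.95). HSC/MPP-like cells had 6.57, 8.07, 8.27 and 4.27 CPM in control, Mll3SI, Mll4SI and Mll3/4SI, and the limits of the Mll3/4SI ratio took in 0.

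**Figure D2:**
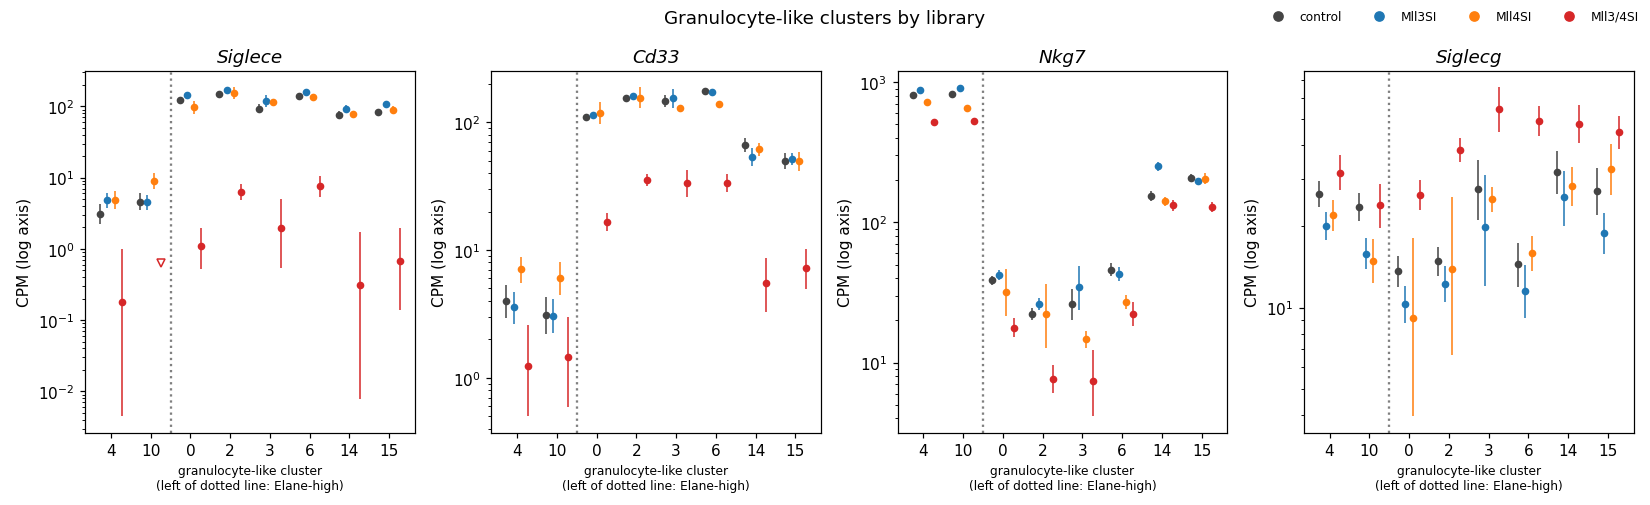
Levels in CPM (log axis) of Siglece, Cd33, Nkg7 and Siglecg in the 8 granulocyte-like clusters, with the 2 Elane-high clusters left of the dotted line. Points are libraries with at least 50 cells in the cluster, bars exact 95% Poisson limits, and the open triangle a count of 0 drawn at the CPM of 3 UMIs. In the 6 later clusters the red Mll3/4SI points lie below the others for Siglece and Cd33 and above control for Siglecg.

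Siglece and Cd33 were higher in Mll4SI in classes where they are rare. In erythroid-like cells Siglece stood at 0.708, 1.06 and 5.82 CPM in control, Mll3SI and Mll4SI, and had no UMI in Mll3/4SI. Cd33 stood at 1.42, 0.607 and 9.69 CPM and likewise had none in Mll3/4SI. The Mll4SI levels were lower in erythroid-like cells with only 1 of the 2 hashtag antibodies, at 2.20 and 1.11 CPM of Siglece (5 and 2 UMIs) and 6.17 and 4.99 CPM of Cd33 (14 and 9 UMIs) for Hashtag1 and Hashtag2. The 15 granulocyte markers moved with them in the same cells, with a summed level of 1429 CPM in control and 2011 in Mll3SI, with 8788 in Mll4SI against 822 in Mll3/4SI, and 0, 0, 0 and 1 markers without a UMI. Ltf, a late granule gene, stood at 42.2, 35.3, 320.3 and 12.4 CPM there. In HSC/MPP-like cells Siglece was 6.10 CPM in Mll4SI against 1.80 in control, beside summed granulocyte markers of 10732 and 5193 CPM. Their part in the Siglece and Cd33 values was not tested.

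Siglecf, the eosinophil Siglec, was highest in basophil/mast-like cells. That class was raised in 9 basophil and mast cell markers but also in 4 eosinophil markers, with Prg2 among its leading genes. The share of eosinophil-like cells in each library was not tested. Siglecf stood there at 35.5 CPM [29.0 to 43.1] in control and 26.0 [18.9 to 34.9] in Mll3SI, with 13.6 [9.25 to 19.3] in Mll4SI against 5.12 [2.93 to 8.31] in Mll3/4SI. The limits of control and Mll3SI overlapped, and Mll4SI was 2.61-fold [1.73 to 4.04] and Mll3/4SI 6.94-fold [4.08 to 12.6] below control. These rest on 102, 44, 31 and 16 UMIs.

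In Elane-high cells Siglecf stood at 17.2 CPM [15.5 to 18.9] in control and 11.9 [10.7 to 13.2] in Mll3SI, with 7.70 [6.46 to 9.11] in Mll4SI against 5.95 [4.56 to 7.63] in Mll3/4SI. The same descending order was found in HSC/MPP-like cells, at 8.15, 5.96, 4.34 and 3.11 CPM. In erythroid-like cells Mll4SI (3.02 CPM) and Mll3/4SI (3.35 CPM) changed places, both below control (9.91 CPM). Monocyte-like cells averaged under 5 CPM and gave 4.02, 2.94, 1.78 and 0.826 CPM, again in descending order. Over the 4 classes where it was measured, Siglecf was lower than control in 4 of 4 in each of the 3 libraries, with log2 ratios of -0.49 to -0.30 in Mll3SI, then -1.44 to -0.78 in Mll4SI against -2.58 to -1.16 in Mll3/4SI. In Mll3SI the limits left out 0 in 1 of the 4, and in Mll4SI in 4 of 4. Since Mll3SI and Mll4SI did not choose the genes by themselves but share the control with the library that did, a low or high control level moves all 3 ratios together.

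Siglecg, the B-cell Siglec, was the Siglec that was higher in Mll3/4SI, in the later granulocyte-like cells. It stood there at 17.1 CPM [16.0 to 18.2] in control and 13.5 [12.5 to 14.6] in Mll3SI, with 22.5 [20.9 to 24.1] in Mll4SI against 39.3 [37.3 to 41.5] in Mll3/4SI. Mll3/4SI was 2.31-fold [2.12 to 2.51] above control, with a log2 ratio of 1.16, and was higher in all 6 later clusters (0.58 to 1.70, of which 2 were past 2-fold). The Mll4SI value of 0.38 did not hold within clusters, where Siglecg was higher in 2 and lower in 4 of 6. Mll4SI had 52.6% of its later cells in cluster 3, against 7.0% of control. Outside the class, the library-specific cluster 12 had 17.9 CPM [16.2 to 19.7] of Siglecg in 1168 Mll3/4SI cells, level with control. Mll3/4SI cells of the library-specific clusters 20, 1 and 8 had 28.6, 33.4 and 52.3 CPM, in 250, 115 and 65 cells.

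In monocyte-like cells Siglecg was lower than control in all 3 other libraries, at 14.6, 8.99, 9.5 and 8.99 CPM in the order control, Mll3SI, Mll4SI and Mll3/4SI. Elane-high cells had 25 CPM in control and 18.0 in Mll3SI, with 19.0 in Mll4SI against 28.1 in Mll3/4SI, where the limits of the Mll3/4SI ratio took in 0. B-lymphoid-like cells had 69, 74, 36 and 19 Siglecg UMIs, or 56.3, 28.4, 54.4 and 30.6 CPM, in only 73, 189, 42 and 37 cells. Cells of the B lineage carry Siglecg, and the class gives a check that the gene was counted where it is known.

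Nkg7, the cytotoxic granule gene, was measured in all 6 classes compared and was lower in Mll3/4SI in 6 of 6. Control levels descended from 818 CPM [806 to 829] in Elane-high cells through 391 in basophil/mast-like, 291 in monocyte-like, 236 in HSC/MPP-like and 167 in erythroid-like to 53.9 CPM [52.0 to 56.0] in later granulocyte-like cells. No neighbours in this order had overlapping limits. T/NK-like cells, the known site of the gene, stood at 1061 CPM in control from 26 cells.

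In HSC/MPP-like cells Nkg7 stood at 236 CPM [228 to 244] in control and 196 [187 to 204] in Mll3SI, with 174 [165 to 182] in Mll4SI against 43.9 in Mll3/4SI, from 226 UMIs. Limits of neighbours in this order were apart, and Mll3/4SI was 5.38-fold [4.70 to 6.19] below control. None of the classes compared lacked the gene to serve as a background. Of the HSC/MPP-like cells, 91.6% of control (median 19767 UMIs) and 49.1% of Mll3/4SI (median 21357 UMIs) had an Nkg7 UMI, and 46.3% [42.5 to 50.1] and 9.17% [5.77 to 13.7] after thinning to 3000 UMIs. The Mll3/4SI value ran from a log2 ratio of -3.31 with cells assigned to their nearest control cells to -1.60 with finer clusters, around -2.40. The library-specific stem-like cluster 16 of Mll3/4SI had 19.5 CPM in 669 cells.

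Basophil/mast-like cells gave 391 CPM in control and 435 in Mll3SI, with 292 in Mll4SI against 81.9 in Mll3/4SI. Monocyte-like cells gave 291, 251, 204 and 74.7 CPM, and erythroid-like cells 167, 170.3, 135 and 52.2 CPM. Mll3/4SI was thus 4.78-fold [4.17 to 5.49], 3.89-fold [3.62 to 4.19] and 3.20-fold [2.71 to 3.80] below control in these classes. The ratio was smaller in Elane-high cells, where the 4 libraries had 818, 890.5, 695 and 523 CPM (1.56-fold [1.52 to 1.61] in Mll3/4SI). That class leaves out the library-specific cluster 11, which also had more Elane than Ltf. Its 1245 Mll3/4SI cells had 150 CPM [146 to 155] of Nkg7, far below the 523 CPM of the class.

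Later granulocyte-like cells gave 53.9 CPM in control and 73.1 in Mll3SI, with 52.1 in Mll4SI against 40.4 in Mll3/4SI, which is 1.34-fold [1.25 to 1.43] below control. Clusters 14 and 15 have the highest Nkg7 levels of the later clusters and held 14% of the later control cells, 20.2% in Mll3SI, then 17.9% in Mll4SI against 20.5% in Mll3/4SI. Within the 6 later clusters Nkg7 was lower in Mll3/4SI in 6 of 6, with log2 ratios of -1.69 to -0.23, and 4 of them were past 2-fold, so that the pooled -0.41 lies near the small end. The Mll3SI ratio of 0.43 was higher than control in 4 of 6 clusters, and ran from -0.09 to 0.69. It was 0.77 in Hashtag1 cells and 0.10 in Hashtag2 cells, whose control levels were 45.1 and 64.9 CPM. Over all granulocyte-like cells the Mll4SI ratio of Nkg7 was -0.11, and 1.0 with finer clusters, where the stage mixes of the libraries were unlike.

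T/NK-like cells were under 50 in each library, too few for levels to be compared. Nkg7 there had 200, 63, 119 and 557 UMIs in 26, 12, 22 and 47 cells, which gives 1061 CPM [919 to 1218], 728 [559 to 931], 971 [804 to 1162] and 1254 [1152 to 1363]. Mll3/4SI had the highest level of the 4 libraries, with limits that overlapped those of control. B-lymphoid-like cells, also under 50 in Mll4SI and Mll3/4SI, had 26.1, 73.7, 6.04 and 0 CPM from 32, 192, 4 and 0 UMIs. The 0 in 37 Mll3/4SI cells stands for at least 5.40-fold below control, taking 3 UMIs in that library as its limit. The Mll3SI value there was 2.82-fold [1.93 to 4.24] above control.

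**Figure D3:**
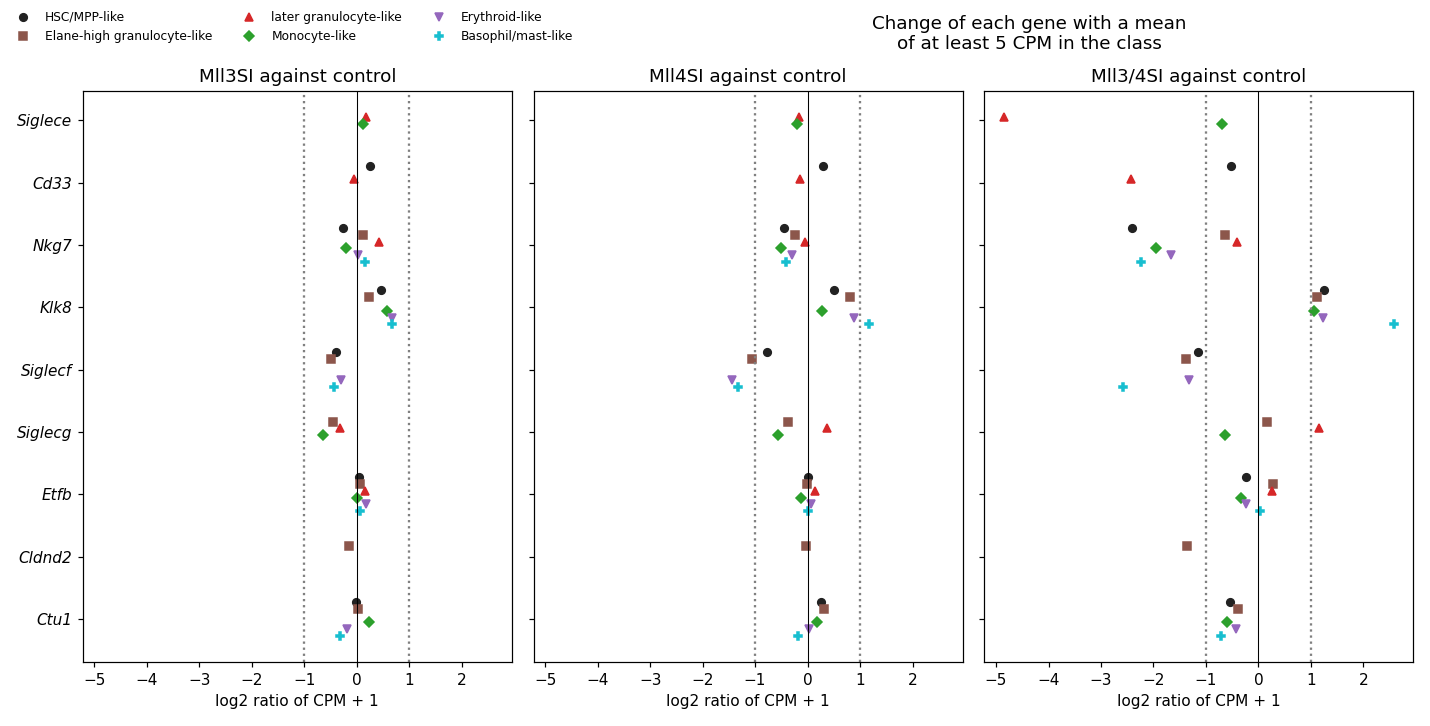
Log2 ratio of CPM + 1 to control for each gene in the classes where its mean was at least 5 CPM, with 1 panel per library and dotted lines at 2-fold. Every Nkg7 and Siglecf marker lies left of 0 in Mll3/4SI and every Klk8 marker right of 1, while Etfb stays within 0.33 of 0 in all 3 panels.

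Klk8, the secreted protease, was the gene that was higher in Mll3/4SI across classes. In Mll3SI and Mll4SI it was also higher in 5 of 5 measured classes, with limits above 0 in 4 and in 5 of them. Control was the lowest library in 5 of 5 classes, and these ratios share it. In Hashtag1 cells the Elane-high ratios were -0.14 in Mll3SI and 0.04 in Mll4SI, and the monocyte-like ratio of Mll4SI was -0.01. Their limits took in 0, and Hashtag2 cells gave 0.54, 1.49 and 0.74. The other Hashtag1 ratios of Mll3SI and Mll4SI were above 0. In HSC/MPP-like cells Klk8 stood at 31.0 CPM [28.1 to 34.0] in control and 42.9 [39.1 to 47.0] in Mll3SI, with 44.1 [40.1 to 48.5] in Mll4SI against 74.6 [67.3 to 82.4] in Mll3/4SI. Mll3SI and Mll4SI overlapped with each other and lay between control and Mll3/4SI, which was 2.41-fold [2.09 to 2.77] above control. A Klk8 UMI was found in 39.4% of control cells and 74.1% of Mll3/4SI cells, and in 0.353% and 1.01% of later granulocyte-like cells, which have next to no Klk8 (median 14924 and 17451 UMIs).

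Basophil/mast-like cells had 15.7 CPM [11.4 to 21], 25.4 [18.4 to 34.2], 36.4 [29.0 to 45.2] and 98.9 [88.2 to 111] in the order control, Mll3SI, Mll4SI and Mll3/4SI. The largest Klk8 ratio was there, 6.31-fold [4.6 to 8.82] in Mll3/4SI. Elane-high cells gave 6.85, 8.27, 12.8 and 16.1 CPM, monocyte-like cells 9.85, 15.1, 12.1 and 21.6 CPM and erythroid-like cells 17.6, 28.5, 33.4 and 42.8 CPM. Log2 ratios over the 5 classes were 0.24 to 0.67 in Mll3SI, then 0.28 to 1.17 in Mll4SI against 1.06 to 2.58 in Mll3/4SI.

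The Mll3/4SI ratio of Klk8 in HSC/MPP-like cells was 2.26 when the library-specific cluster 16 was counted in. That cluster, led by Angpt1, Arhgap6, Cpa3 and Fcer1a, had 179.8 CPM of Klk8 from 2590 UMIs in 669 Mll3/4SI cells. Cluster 11, a cluster of the same library led by Mpo, Ly6e and Ms4a6c, had 73.7 CPM in 1245 cells.

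Etfb, which passes electrons from fatty acid oxidation to the respiratory chain, starts 7.0 kb after Nkg7 and was past 2-fold in none of the 6 classes. Among HSC/MPP-like cells it stood at 263 CPM [255 to 272] in control and 270.5 [261 to 280] in Mll3SI, with 265 [254 to 275] in Mll4SI against 223 [210 to 236] in Mll3/4SI. The first 3 overlapped and Mll3/4SI was 1.18-fold [1.10 to 1.26] below control. Across the 6 classes the log2 ratios were 0.01 to 0.17 in Mll3SI, then -0.13 to 0.14 in Mll4SI against -0.33 to 0.27 in Mll3/4SI, with 3 classes higher and 3 lower in the last.

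Cldnd2 lies between Nkg7 and Etfb, and was measured in Elane-high cells only. It stood there at 7.44 CPM [6.39 to 8.62] in control and 6.62 [5.71 to 7.64] in Mll3SI, with 7.25 [6.05 to 8.62] in Mll4SI against 2.30 [1.48 to 3.43] in Mll3/4SI, 3.23-fold [2.10 to 5.18] below control. Among HSC/MPP-like cells it had 39, 22, 17 and 0 UMIs, and the 0 in Mll3/4SI stands for at least 4.83-fold below control. Ctu1 was measured in 5 classes and was lowest of the 4 libraries in Mll3/4SI in 5 of 5, with log2 ratios of -0.72 to -0.38, though the limits left out 0 in 2 of them. Among HSC/MPP-like cells it stood at 7.87, 7.80, 9.51 and 5.05 CPM.

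The 2 hashtag antibodies divided each library into cells with 1 or the other, and the labels do not say what they marked. Of the 34 measured gene and class pairs, 17 were past 2-fold in Mll3/4SI. In 17 of 17 the direction was the same in the cells of each hashtag, and 13 were past 2-fold in both. The 4 others were Klk8 in Elane-high and in monocyte-like cells, Siglecf in erythroid-like cells and Siglecg in later granulocyte-like cells. The 17 pairs were picked on ratios pooled over these same cells, so nothing is read from their agreement. Pairs not past 2-fold were not counted.

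For Siglece in later granulocyte-like cells the Hashtag1 cells had 127.1, 141, 116 and 3.34 CPM and the Hashtag2 cells 128, 143, 115.5 and 3.99 CPM, in the order control, Mll3SI, Mll4SI and Mll3/4SI. The 2 sets of cells had nearly equal levels in each library. Nkg7 in HSC/MPP-like cells was 224, 199, 168 and 40.9 CPM with Hashtag1 and 244, 191, 172 and 49.9 CPM with Hashtag2. Klk8 in HSC/MPP-like cells differed more within the control library, 36.1 against 26.8 CPM. With Hashtag1 its ratios were 0.23 in Mll3SI and 0.14 in Mll4SI, both with limits that took in 0, and with Hashtag2 they were 0.77 and 0.89. The Mll3/4SI ratios were 1.09 and 1.29.

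**Figure D4:**
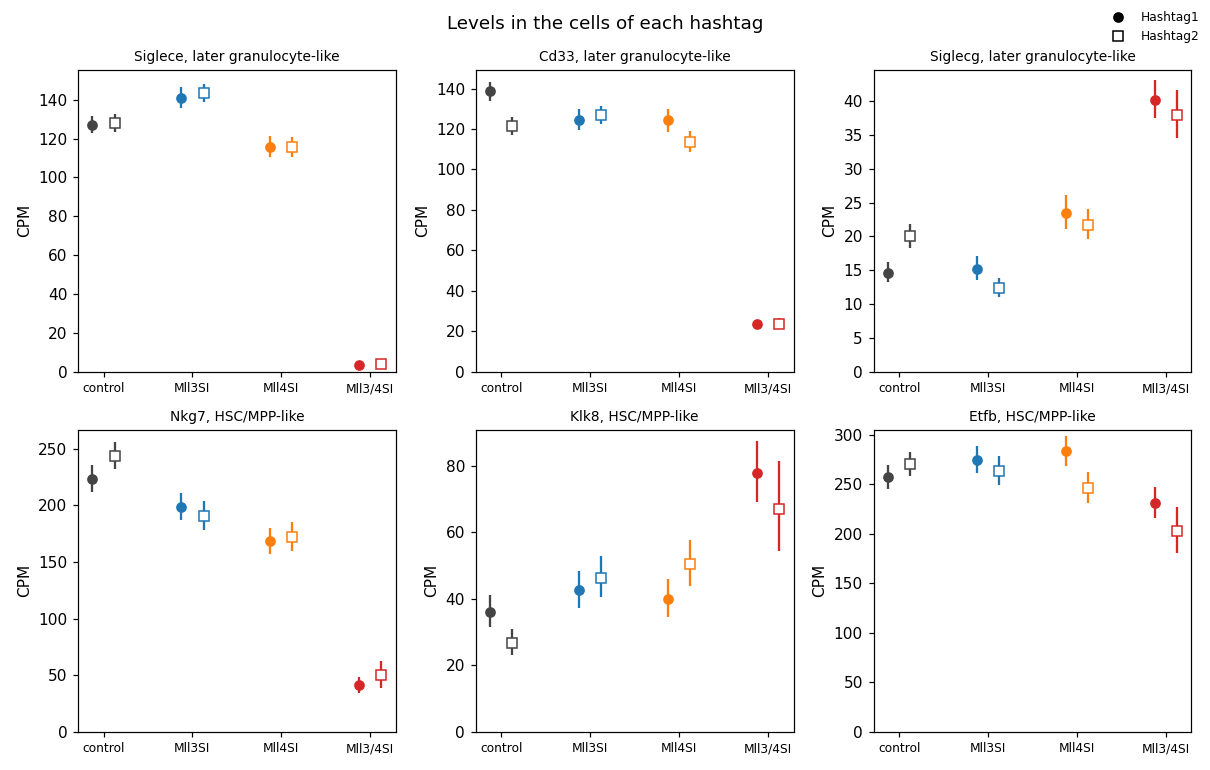
Levels in CPM (linear axis from 0) of 6 gene and class pairs in the cells of each hashtag, filled circles for Hashtag1 and open squares for Hashtag2, with exact 95% Poisson limits. In Siglece, Cd33 and Nkg7 both Mll3/4SI points lie far below all other points, and in Klk8 and Siglecg above them.

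Other genes of the stretch were examined within 2 Mb of the outermost genes, 178 in all, of which 54 were measured in HSC/MPP-like cells. In Mll3/4SI 4 of the 54 were past 2-fold, all lower (AI987944, Zfp976, Bcl2l12 and Gm31597), or 7.41% against 1.01% of all measured genes. Elane-high cells had 4 of 50 (AI987944, Zfp141, Zfp976 and Gm31597), 8.0% against 0.739%. Later granulocyte-like cells had 4 of 36 (AI987944, Zfp141, Napsa and Nucb1), 11.1% against 0.968%, and monocyte-like cells 3 of 49 (AI987944, Zfp976 and Gm31597), 6.12% against 0.649%. The stretch was chosen for its shifts in this contrast, so nothing is read from these shares. The count in Mll3SI was 0 in each of these 4 classes, and in Mll4SI it was 1 (Dkkl1, in HSC/MPP-like cells). Between the outermost of the 9 genes lie 17 others, and 1 of them was measured. It was Zfp719, a zinc finger gene, with log2 ratios in Mll3/4SI of -0.16 in HSC/MPP-like and -0.93 in later granulocyte-like cells.

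Gm31597, a predicted gene on the far side of Klk8 (45742049 to 45750257), had 131, 109, 78 and 0 UMIs in HSC/MPP-like cells in the order control, Mll3SI, Mll4SI and Mll3/4SI. Taking 3 UMIs as the limit, Mll3/4SI was at least 16.2-fold below control, and in Elane-high cells, with 203, 280, 142 and 0 UMIs, at least 29.6-fold. Whether the libraries differ in the strain origin of this stretch was not tested, for these genes or for the 9. Zfp976, a zinc finger gene on the Siglecf side (42609526 to 42642588), had 15.6, 16.9, 16.4 and 1.17 CPM in HSC/MPP-like cells, a log2 ratio of -2.94 in Mll3/4SI. AI987944 (41372923 to 41393379), also on that side, had 15.1, 15.3, 14.8 and 4.47 CPM there, and in later granulocyte-like cells 6.69, 6.90, 6.82 and 0.119 CPM.

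Napsa, an aspartic protease gene (44572380 to 44586862), had 102, 128, 101 and 31.9 CPM in later granulocyte-like cells, a log2 ratio of -1.65 in Mll3/4SI. Nucb1, a calcium-binding protein gene, had 48.9, 49.1, 38.6 and 18.4 CPM there (-1.36). The median log2 ratio in Mll3/4SI was -0.33 over the 8 measured genes on the Siglecf side and -0.06 over the 45 on the Klk8 side in HSC/MPP-like cells, against -0.07 over all measured genes.

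**Figure D5:**
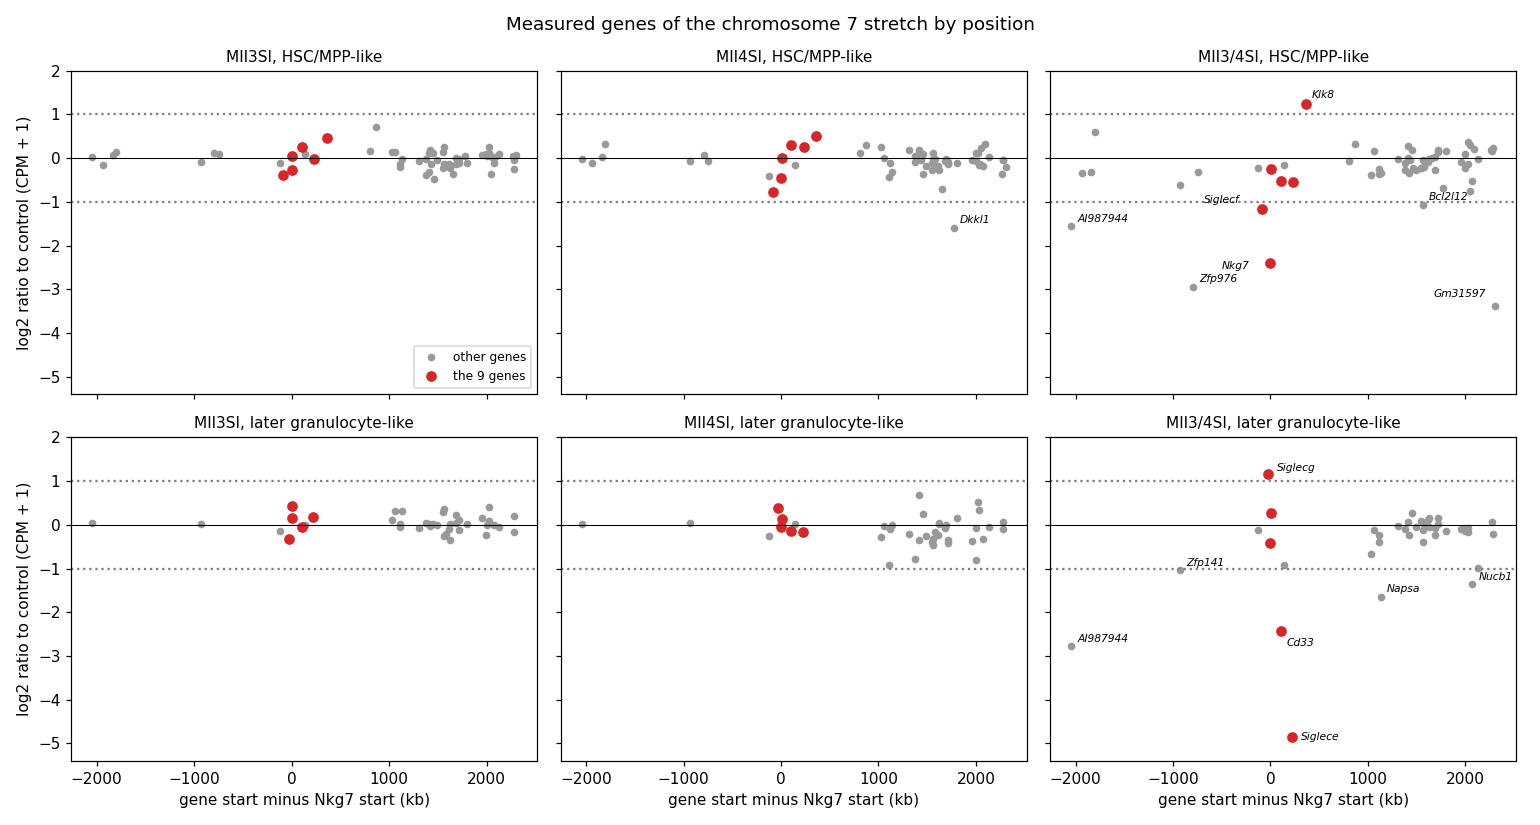
Log2 ratio to control of each measured gene of the stretch against the distance of its start from that of Nkg7 (kb), for the 3 libraries in HSC/MPP-like (top) and later granulocyte-like cells (bottom). The 9 genes are red and others grey, genes past the dotted 2-fold lines are named. The Mll3/4SI panels hold points down to -4.85, and the Mll3SI panels hold none past 2-fold.

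The partners of these genes were counted over lists of related genes, in HSC/MPP-like, Elane-high, later granulocyte-like and monocyte-like cells. Of 20 genes of Siglec signalling and sialic acid synthesis, 17 were measured in HSC/MPP-like cells. Of these 1, St6gal1, was past 2-fold in Mll3/4SI, where 1.01% of all measured genes were. St6gal1, which adds the terminal sialic acid that Siglec-G and CD22 bind, stood at 3.17, 4.49, 7.24 and 9.32 CPM in the order control, Mll3SI, Mll4SI and Mll3/4SI. The list's median log2 ratio was -0.05 in Mll3/4SI against -0.07 over all measured genes, and Ptpn6 and Ptpn11, the phosphatases that Siglecs recruit, were not past 2-fold. In later granulocyte-like cells 0 of 14 were, where 0.968% of all measured genes were, with a median of -0.02 against 0.02.

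None of the 9 flavoprotein partners of Etfb or the 11 genes of transfer RNA thiolation around Ctu1, all measured in HSC/MPP-like cells, were past 2-fold in any library. Their medians in Mll3/4SI were -0.06 and -0.01. Of 10 cytotoxic granule genes 4 were measured there (Ctsc, Srgn, Lamp1 and Cst7), 0 past 2-fold, with a median of -0.18. Of all genes measured in HSC/MPP-like cells, 0.403%, 1.87% and 1.01% were past 2-fold in Mll3SI, Mll4SI and Mll3/4SI. At such shares nothing is read from counts of 0 in these lists. Of 26 kallikrein genes, Klk8 alone was measured in HSC/MPP-like cells. Of the 9 Siglec family genes listed, no gene outside the chromosome 7 stretch was measured in HSC/MPP-like or later granulocyte-like cells.

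Over 22 library and class points the genes whose log levels correlated best with each of the 9 were found among 8629 genes. The points share their libraries and the class makeup, so this is a description. Lyz2, a granulocyte and monocyte gene, was nearest to Siglece (Pearson r = 0.88), AA467197 (0.93) and Ly6g (0.92) to Cd33, Tmem19 (0.87) to Nkg7 and Jpx (0.91) to Klk8. Jpx is X-linked and lies beside Xist. H2-K1 (0.910, chromosome 17) and Zfp788 (0.908, chromosome 7) were nearly level with Jpx for Klk8. Siglecg was nearest to Ethe1 (0.94), Siglecf to Grb2 (0.90) and Etfb to Tm7sf3 (0.90). For Ctu1 it was 4933434E20Rik (0.92), and for Cldnd2 Gdpd3 (0.79).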

How the data were processed

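The deposited values were UMI counts per gene and cell barcode, made by the authors with Cell Ranger 7.1.0 on build mm10, per the submitters' processing notes. Cells with at least 500 genes, 1000 UMIs and at most 10% mitochondrial UMIs were kept, and Scrublet scores removed 0.8% per 1000 cells as doublets. The 4 libraries were clustered jointly (scanpy 1.11.5, leidenalg 0.10.2, 2000 variable genes, 30 components, resolution 1), giving 23 clusters. Clusters were named from marker lists, with at least 3 markers and a lead of 2. Leaving out library-specific clusters, and splitting granulocyte-like cells by stage, were decided after the clusters were seen. The 9 genes and all lists were chosen with earlier results of these data known. Named genes were the 9, other genes of the stretch past 2-fold, and list genes past 2-fold. UMIs were summed per library and class. With 1 library per group no p-value was computed. The ratio code was tested on simulated data. Class names were rebuilt, which can make shares depart from the study's own. Alternatives are in the closing section.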

Additional observations from a re-analysis of the deposited data

Results flagged for a closer look

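For 7 gene and library pairs the counting limits of the ratio lay above 0 in 1 class and below 0 in another, so the direction differed between classes. The difference between classes was not tested, and with 1 library per group it has no replicate check. In Mll3/4SI, Siglecg had a log2 ratio of 1.16 in later granulocyte-like and -0.64 in monocyte-like cells, with -0.97 and -0.34 in Hashtag1 and Hashtag2 monocyte-like cells, the latter with limits that took in 0. Etfb had 0.27 in Elane-high and -0.33 in monocyte-like cells. In Mll4SI, Siglece had 2.0 in erythroid-like and -0.16 in later granulocyte-like cells, and Cd33 2.15 and -0.15. Both genes averaged under 5 CPM in erythroid-like cells, and within the 6 later clusters Siglece was higher in 4 and lower in 2, Cd33 higher in 2 and lower in 4. In erythroid-like cells Siglece was 1.68 with Hashtag1 and 0.36 with Hashtag2, from 5 and 2 of its 27 Mll4SI UMIs. The Hashtag2 limits took in 0. Cd33 was 1.60 and 2.18, from 14 and 9 of its 45 UMIs. Siglecg in Mll4SI had 0.38 in later granulocyte-like and -0.84 in HSC/MPP-like cells, and Etfb 0.14 in later granulocyte-like and -0.13 in monocyte-like cells. Siglecg averaged under 5 CPM in HSC/MPP-like cells and was 0.65 in Hashtag1 and 0.11 in Hashtag2 later cells, the latter with limits that took in 0. Etfb in monocyte-like cells was -0.01 in Hashtag1 cells, with limits that took in 0, and -0.24 in Hashtag2 cells. In Mll3SI, Nkg7 had 0.43 in later granulocyte-like and -0.27 in HSC/MPP-like cells. The later value was 0.77 in Hashtag1 and 0.10 in Hashtag2 cells.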

How the results depend on the processing

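No paired analysis was possible because each group had 1 library. Alternatives were run for HSC/MPP-like cells and granulocyte-like cells of all stages, not for the other classes. There, 7 counts of genes past 2-fold moved by over 1.5 times. In HSC/MPP-like cells the Mll4SI count went from 0 to 1 with 1.5-fold as the limit (Siglecf) and to 1 with no filter on low values (Siglece), and the Mll3/4SI count from 3 to 5 without doublet removal and to 5 with cells thinned to 3000 UMIs (Cd33 lower in both, with Siglece lower in the first and Siglecg higher in the second). In granulocyte-like cells the Mll4SI count went from 0 to 3 at Leiden resolution 2 (Siglece at -1.24, Cd33 at -1.39 and Nkg7 at 1.0) and to 1 in Elane-high clusters alone, and the Mll3/4SI count from 3 to 5 at 1.5-fold. At resolution 2 the class compares unlike stage mixes of control and Mll4SI. The stage split was chosen after seeing the data, as were counting in library-specific clusters and leaving out cluster 3. The cause was not tested. The 6 Mll3/4SI ratios past 2-fold in these classes kept their direction and ranged, in HSC/MPP-like cells, from -3.31 to -1.60 for Nkg7, 1.05 to 2.26 for Klk8 and -2.11 to -0.47 for Siglecf, and in granulocyte-like cells from -5.20 to -2.15 for Siglece, -2.84 to -0.95 for Cd33 and -1.55 to -0.46 for Siglecf. Siglecf at -0.47 and -0.46, with 10 CPM added, was not past 2-fold, nor was Cd33 at -0.95 in Elane-high clusters alone. Each alternative ratio of these classes was set against the longer distance from the main value to either of its counting limits. By that measure 404 values differed from the main value by no more than this distance, and 154 by more. Counts under 20 UMIs, such as Siglecf in basophil/mast-like cells of Mll3/4SI, give wide limits.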

Other observations

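In the clusters that came mostly from 1 library and stood outside the classes, Siglece followed the library. Cluster 1, led by Chil3 and Camp, held 2701 Mll4SI cells with 137 CPM [134 to 141] and 115 Mll3/4SI cells with 1.39 CPM [0.287 to 4.07]. Cluster 8, led by the neutrophil genes Retnlg, Mmp8 and Mmp9, held 80 control cells with 109 CPM [82.8 to 142], 1482 Mll4SI cells with 147 CPM and 65 Mll3/4SI cells with 28.0 CPM [15.7 to 46.2]. Cd33 in cluster 8 was 397, 290.3 and 181 CPM in the same order, so the Mll3/4SI cells of that cluster were nearer to control than those of the later granulocyte-like clusters. Cluster 12, led by the stefin genes Cstdc5, Cstdc4 and Stfa1, held 1168 Mll3/4SI cells with 0.132 CPM of Siglece, 7.24 of Cd33 and 21.8 of Nkg7.

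Dendritic-like cells, 16 to 37 per library, had 5, 17, 58 and 0 Nkg7 UMIs in the order of the groups used above. The cluster is too small for a level to be compared.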
